A study of Drosophila melanogaster with 2 samples.

Results

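The genes described are the cytosolic ribosomal protein genes of Drosophila melanogaster, taken as every protein-coding gene whose symbol is RpL or RpS followed by a digit, or is RpLP0, RpLP1, RpLP2 or sta. In the Ensembl annotation of the release 6 assembly (dm6) 92 of 13968 protein-coding genes met this rule, 53 for the large ribosomal subunit and 39 for the small one. Occupancy by Ssrp was measured at them by chromatin immunoprecipitation and sequencing (ChIP-seq) in whole embryos collected from 0 to 16 h after laying, with both sexes pooled. The flies were a transgenic line that stably expressed Ssrp with GFP fused to its C-terminal end, and the precipitating antibody recognised GFP, so the tagged copy was what was measured. Per the labels the chromatin was sonicated to a size range of 200 to 800, with no unit given. The 2 samples were biological replicates from separate biosamples and formed a single group with no contrasting treatment, so the results are descriptions without a test. A whole embryo of this age span mixes all its cell types and stages, and control libraries were not analysed here.

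The ribosome translates mRNA. Its small subunit reads the codons and its large subunit joins the amino acids, while the stalk built on RpLP0, RpLP1 and RpLP2 recruits translation factors. Cells need most proteins of the ribosome in equal amounts. In the fly the loss of a single copy of such a gene often gives the Minute phenotype of delayed growth and short bristles. Many of the genes start transcription inside a run of pyrimidines, the TCT initiator, and many carry small nucleolar RNA (snoRNA) genes in their introns. Ssrp and Spt16, the product of dre4, make up FACT, a histone chaperone that loosens and restores nucleosomes where RNA polymerase transcribes.

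The sequences around the transcription start sites (TSSs) show how these promoters are built. Each window below runs from 100 bases upstream of an annotated TSS to 20 bases past it, on the strand of the gene, and comes from the RefSeq release 6 genome. Capitals mark TATCGATA, the DNA replication-related element (DRE), on either strand within 100 bp of the TSS, and CTTT, the core of the TCT initiator, on the strand of the gene within 10 bp of the TSS. The genes shown are among those with the strongest Ssrp-GFP peaks. RpL34b is at chr3R:9401206-9401326, RpL32 at chr3R:30046141-30046261, RpS25 at chr3R:11216267-11216387 and RpL28 at chr3L:3222940-3223060, all on the minus strand. RpL34b and RpL32 hold 2 CTTT matches each, and RpS25 and RpL28 hold a DRE upstream and a CTTT match at the TSS.
RpL34b: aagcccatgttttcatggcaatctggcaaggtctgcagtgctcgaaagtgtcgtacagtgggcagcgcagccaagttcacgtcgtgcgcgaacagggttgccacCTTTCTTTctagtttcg
RpL32: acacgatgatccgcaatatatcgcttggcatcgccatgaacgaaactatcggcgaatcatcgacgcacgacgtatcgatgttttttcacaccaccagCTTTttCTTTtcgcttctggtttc
RpS25: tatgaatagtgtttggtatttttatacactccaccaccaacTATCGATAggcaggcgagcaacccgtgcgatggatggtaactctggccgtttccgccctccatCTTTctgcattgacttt
RpL28: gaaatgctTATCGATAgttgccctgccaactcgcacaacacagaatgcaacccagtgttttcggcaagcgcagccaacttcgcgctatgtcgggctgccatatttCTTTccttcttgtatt

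The next 4 windows belong to paralog pairs and are shown because an IDR summit lay near a TSS of RpS19a and RpS28b but not of their partners. RpS19a is at chrX:16637794-16637914 on the plus strand and RpS19b at chr3R:23933510-23933630 on the minus strand. RpS28b is at chrX:9554523-9554643 on the plus strand and RpS28a at chr3R:30022628-30022748 on the minus strand. RpS19a and RpS28b hold CTTT within 10 bp of the TSS, and the RpS19b and RpS28a windows hold neither a DRE nor such a CTTT match. CTTT does occur in them farther away, in RpS28a just past the limit of 10 bp. Not every pair with a single bound gene differed in this way.
RpS19a: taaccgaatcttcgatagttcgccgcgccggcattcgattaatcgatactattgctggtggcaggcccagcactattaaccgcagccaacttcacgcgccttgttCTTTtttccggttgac
RpS19b: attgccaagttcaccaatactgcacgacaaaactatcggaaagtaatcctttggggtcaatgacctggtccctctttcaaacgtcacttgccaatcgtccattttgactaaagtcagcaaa
RpS28b: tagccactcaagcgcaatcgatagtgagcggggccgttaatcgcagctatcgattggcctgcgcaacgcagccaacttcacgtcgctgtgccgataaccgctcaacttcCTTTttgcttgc
RpS28a: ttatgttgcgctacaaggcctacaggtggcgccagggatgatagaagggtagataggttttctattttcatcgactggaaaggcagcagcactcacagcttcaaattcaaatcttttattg

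The authors deposited a peak list for each replicate, a pooled list, each of 30000 peaks, and a list of 5445 peaks that passed a cut on the irreproducible discovery rate (IDR), which asks whether peaks keep their order from replicate to replicate. A gene was called bound when at least 1 of its TSSs had the summit of an IDR peak within 500 bp. The signal of a peak is the authors' value, and each replicate list has a scale of its own. The 52 genes described next as bound had the same signal and rank in the IDR list as in the pooled list. Over all protein-coding genes the 5445 strongest pooled peaks gave 2694 genes, as many as the IDR list. Being bound is thus much the same as having a summit among the 5445 strongest pooled peaks. All 4 lists draw on 1 further alignment that they share. Read numbers are not in the files, so depth is unknown, and the intervals given are Wilson 95% intervals that cover the counting error of genes only.

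Ssrp-GFP peaks were found at most ribosomal protein promoters, and most of these peaks were of middle or low rank within the IDR list. The longer replicate lists placed the 52 bound genes higher, with median ranks of 2492 in replicate 1 and 2994 in replicate 2. Their median signals there were 3.19 and 4.30 times the list median. By the IDR list 52 of the 92 genes were bound, a share of 56.5% (interval 46.3 to 66.2%), while the share was 19.3% over all protein-coding genes. Counting summits anywhere inside the gene added RpL12 and gave 53 genes, beside 24.9% of all protein-coding genes. In the longer pooled list 82 genes had a summit within 500 bp of a TSS (89.1%, interval 81.1 to 94.0%), beside 43.4% of all protein-coding genes. With the gene itself included the pooled list reached 86 genes, beside 54.6%. Few ribosomal protein genes were thus left without an entry in the pooled list, whatever its strength. The deepest entries are weak. At RpS28-like, RpS28a, RpS2 and RpS15 the −log10 of the q-value was between 0.437 and 0.495.

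**Figure D1:**
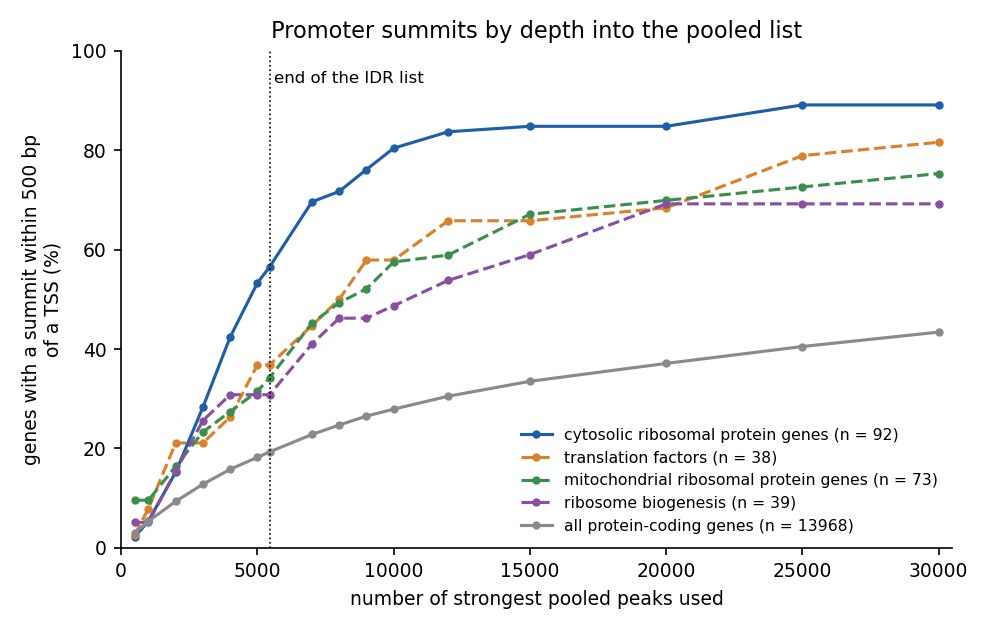
Percentage of genes with a pooled summit within 500 bp of a TSS (vertical axis) against the number of strongest pooled peaks used (horizontal axis), for the ribosomal protein genes and 4 other gene sets; the dotted line marks 5445 peaks, the length of the IDR list. The ribosomal protein genes stood at 5.43% with the 1000 strongest peaks, 56.5% at 5445 and 80.4% at 10000.

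Along the pooled list the share grew mainly past the strongest peaks. Among the 500 and the 1000 strongest pooled peaks, 2 and 5 ribosomal protein genes had a summit (2.17% and 5.43%), beside 2.96% and 5.36% of all protein-coding genes, so the shares were near the background there. Among the 3000 strongest it was 26 (28.3%, beside 12.8%) and among the 10000 strongest 74 (80.4%, beside 27.9%). Mitochondrial ribosomal protein genes, which are encoded in the nucleus and serve the ribosome of the mitochondrion, had 7 of 73 within the 500 strongest and 42 of 73 within the 10000 strongest. The mitochondrial set thus led in the strongest peaks and the cytosolic set led further down.

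Within the IDR list the signals of the bound genes were moderate. The 52 genes had IDR signals between 160 and 1028, with quartiles of 210 and 374 around a median of 266, while the median of all 5445 IDR peaks was 292. Over all 2694 bound protein-coding genes the median was 355, with quartiles of 236 and 653. Of the bound ribosomal protein genes 5 (9.62%) had a peak among the 1000 strongest of the IDR list, and of all bound protein-coding genes 748 (27.8%) did. Counted over all genes, bound or not, these are 5.43% of the ribosomal protein genes and 5.36% of the protein-coding genes. Of the 52 peaks 35 had the commonest width of the list, 396 bp, as did 55.2% of all IDR peaks. The others were narrower, down to 109 bp, and none was wider.

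Large subunit genes were bound in 34 of 53 cases (64.2%, interval 50.7 to 75.7%), and their median IDR signal was 274. RpL34b had the highest signal, with a peak 11.1 times the list median in replicate 1 and 15.2 times in replicate 2. RpL7, next among the large subunit genes, stood at 6.36 and 10.5 times. RpL32, long used as a reference gene for expression measurements in the fly under the name rp49, had peaks of 6.29 and 9.53 times the median. RpL28 followed with 5.17 and 8.04 times, and RpL23 with 4.13 and 9.05 times. RpL23A, at the exit of the peptide tunnel where the signal recognition particle docks, stood at 5.21 and 6.98 times. In each of these 6 genes the multiple was higher in replicate 2, whose list has its own scale.

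At the other end of the bound large subunit genes were RpL10, RpL29, RpL36, RpL31 and RpL27. RpL10, which joins the subunit late in its maturation, had an IDR signal of 160 with multiples of 2.53 and 3.44 in the replicates. RpL29 had 164 with 2.45 and 1.60, and RpL36, a Minute gene of the X chromosome, had 165 with 1.72 and 2.38. RpL31 had 175 with 3.19 and 2.26, and RpL27 had 177 with 2.11 and 2.02. These 5 peaks were close to the lowest signal of the IDR list, 157, and the replicates did not share an order among them.

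The stalk genes were all bound, each with a moderate peak. RpLP0 had an IDR signal of 311, and its multiples were 3.29 in replicate 1 and 5.07 in replicate 2. RpLP2 had a signal of 226, with near-equal multiples of 2.83 and 2.90. RpLP1 had a signal of 183, with 2.96 in replicate 1 and 1.20 in replicate 2, so its call rested mostly on replicate 1. RpL12, which lies at the base of the stalk, had an IDR peak only away from its TSSs, at chr2R:24061456-24061851, with rank 4812 and a summit in the 3′ UTR of its longest transcript, 1200 bp past the nearest TSS.

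Small subunit genes were bound in 18 of 39 cases (46.2%, interval 31.6 to 61.4%), with a median IDR signal of 263, so the intervals of the subunits overlap. In the pooled list the order was the other way round, with 37 of 39 small subunit genes (94.9%) and 45 of 53 large subunit genes (84.9%). RpS27 led this subunit, with peaks 10.7 and 13.2 times the list median in replicates 1 and 2. RpS20 followed at 6.13 and 10.8 times and RpS25, which viral internal ribosome entry sites need in yeast and human cells, at 6.98 and 7.49 times. RpS5a, a Minute gene that holds 14 snoRNA genes, had multiples of 2.37 and 3.89. sta, named for its stubarista phenotype and the counterpart of mammalian RPSA, stood at 2.72 and 1.99.

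**Figure D2:**
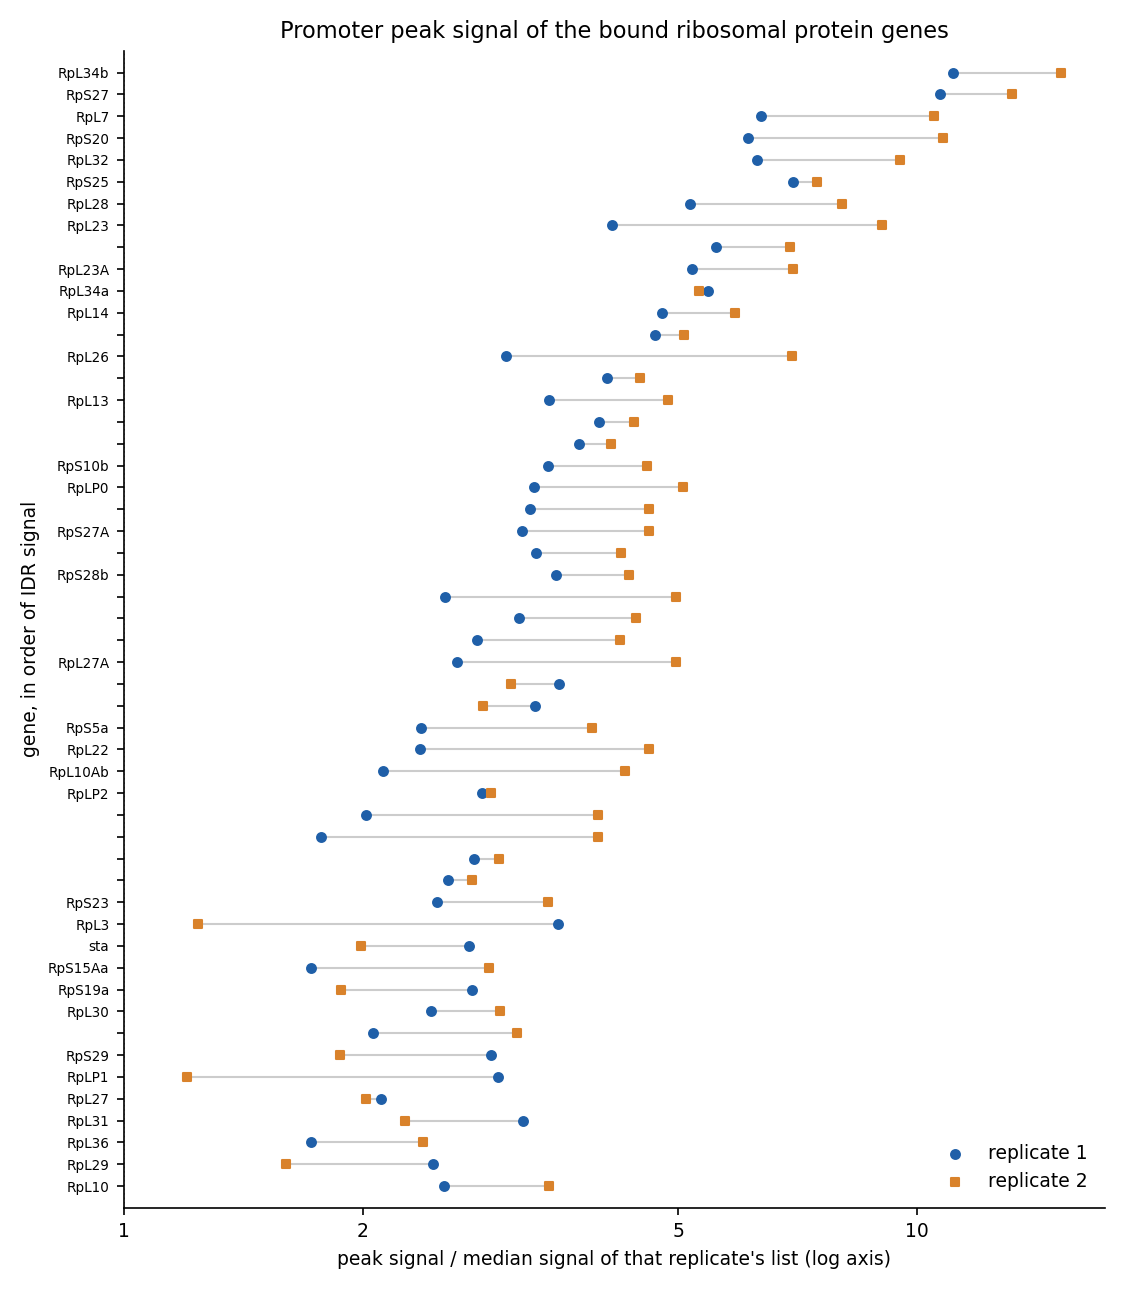
Signal of the strongest promoter peak of each bound ribosomal protein gene divided by the median signal of the same replicate list (log axis), with circles for replicate 1 and squares for replicate 2; genes run from the highest IDR signal at the top to the lowest, and names are given for genes described in the text. RpL34b and RpS27 stand above 10 times the median in both replicates, and RpLP1 and RpL3 have the lowest squares, at 1.20 and 1.24.

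Among the 40 genes without an IDR summit near a TSS, most had a weaker peak in the pooled list. A pooled promoter summit was present at 30 of them (75%), and at 29.8% of all 11274 protein-coding genes not bound. Their pooled ranks lay between 5495 and 24050 (median 8578), and 23 lay within the 10890 strongest pooled peaks (57.5% of the 40, beside 12.1% of all genes not bound). RpS14b at rank 5495, RpL40 at 5515, RpS14a at 5532 and RpS3A at 5597 lay just past the end of the IDR list, and RpL10 at 5345 and RpL29 at 5201 just inside it. RpS3A is the only ribosomal protein gene of chromosome 4. RpS6, the target of S6 kinase, had rank 6128, and RpS3, which lines the mRNA entry channel, had rank 6938.

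A pooled promoter summit was missing at 10 genes. RpL5, RpL24-like, RpL35A and RpL38 had a pooled summit elsewhere in the gene, and RpL38 had rank 4226 in replicate 2 alone. RpL10Aa, RpL22-like, RpL37-2, RpL7-like, RpS15Ab and RpS19b had no summit in any of the 4 lists, neither inside the gene nor within 500 bp of a TSS. In each of these 6 the symbol marks the gene as a copy or relative of another ribosomal protein gene. RpL22-like and RpS19b are known for expression in the fly germ line.

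The replicates gave similar counts and mostly the same genes. Using the 5445 strongest peaks of each replicate, 55 genes had a promoter summit in replicate 1 (beside 19.5% of all protein-coding genes) and 49 in replicate 2 (beside 19.1%). Both replicates held 41 genes, which is 44.6% of the 92, while 16.5% of all protein-coding genes were in both. Replicate 1 alone held 14 and replicate 2 alone 8, and no gene outside the 52 bound ones was in both. Of all protein-coding genes 2722 were held by replicate 1, 2672 by replicate 2 and 2298 by both. A larger part of these was thus shared than of the ribosomal protein genes. Of the 92 genes 29 were in neither.

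Ranks in the replicate lists show which genes rest on a single replicate. All 52 bound genes had a peak in both whole lists, with ranks of 324 to 5863 in replicate 1 and 460 to 11591 in replicate 2. Over the 80 genes with a peak in both, Spearman's rho between the ranks was 0.760, and over the 52 bound genes it was 0.670. These lists share an alignment, so the correlation is a description only. RpL3, which reaches to the peptidyl transferase centre, ranked 2160 in replicate 1 and 11161 in replicate 2, and RpLP1 ranked 2753 and 11591. RpL36A ranked 4691 and 15657 and was not bound. In these 3 genes the peak ranked higher in replicate 1.

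**Figure D3:**
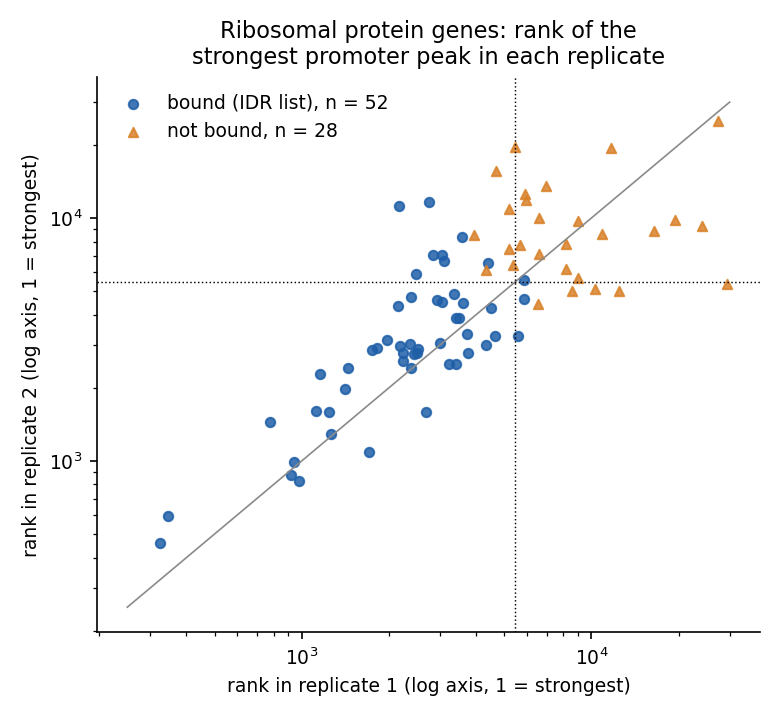
Rank of the strongest promoter peak of each ribosomal protein gene in replicate 1 (horizontal) and replicate 2 (vertical), both log axes with 1 the strongest; circles are the 52 bound genes, triangles 28 genes not bound, the solid line marks equal ranks and the dotted lines rank 5445. No triangle lies below and left of both dotted lines, and the genes farthest above the solid line among the circles are RpL3 and RpLP1.

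Summits at ribosomal protein genes lay close to the TSS. In the 52 bound genes the strongest summit had a median position of -51 bp, that is upstream of the nearest TSS of the gene (quartiles -97.5 and -11.0 bp), and 36 summits (69.2%) were within 100 bp. Over all bound protein-coding genes the median was -162 bp (quartiles -241 and -101), with 18.6% within 100 bp. RpS23, whose protein sits at the decoding centre, had its summit at -1 bp, sta and RpL31 at -3 bp, RpL10 at +1 bp and RpS29 at +6 bp.

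Most of these summits were still upstream. The position was upstream of the nearest TSS in 43 of 52 genes (82.7%, interval 70.3 to 90.6%), and in 89.9% of all bound protein-coding genes. The summit was in the 5′ UTR at RpL7, RpL10, RpL26, RpL30 and RpS29, in an intron at 3 genes, RpL3 and RpL29 among them, and in a coding exon at RpLP1, 190 bp past the TSS. In the pooled list, where a gene can have several, 78 of 192 summits in or near the genes (40.6%) were upstream, 42 (21.9%) in coding exons, 33 (17.2%) in introns and 24 (12.5%) in 3′ UTRs. Pooled summits were therefore more spread over the genes than the IDR summits, of which 47 of 58 (81.0%) were upstream. The weaker pooled summits were not counted apart. Such shares over all protein-coding genes are not given here, so the spread cannot be called particular to these genes.

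Each replicate placed the summits nearer the TSS at ribosomal protein genes than over all genes. Among the strongest peaks of replicate 1 the median was -32.0 bp at 55 ribosomal protein genes and -155 bp at all 2722 protein-coding genes with such a summit. In replicate 2 the medians were -86.0 bp at 49 genes and -164 bp at 2672. Within a gene the replicate summits were 21.0 bp apart at the median, and 34 of the 52 bound genes had them within 50 bp. Among the others, RpL10 had its summit at +231 bp in replicate 1 and -66 bp in replicate 2, and RpL18 at -62 and -308 bp.

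A peak between divergent genes can count for both, so the genes alone at their peak were also taken. For 34 of the 52 bound genes the peak summit also lay within 500 bp of a TSS of another gene, and for 29 (55.8%) that gene was protein-coding, beside 60.3% of all bound protein-coding genes. At the 18 genes with no other TSS the median summit was at -31.0 bp, while it was at -185 bp over the 995 bound protein-coding genes of the same kind. Their signals were lower, with a median 0.809 times that of the list, against 0.912 for all 52. Shared peaks included that of RpL28 with eIF1, which encodes a factor for start codon choice, that of RpL14 with Nelf-E, a subunit of the pausing factor NELF, and that of RpL13 with Dref, the gene of the protein that binds DRE.

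**Figure D4:**
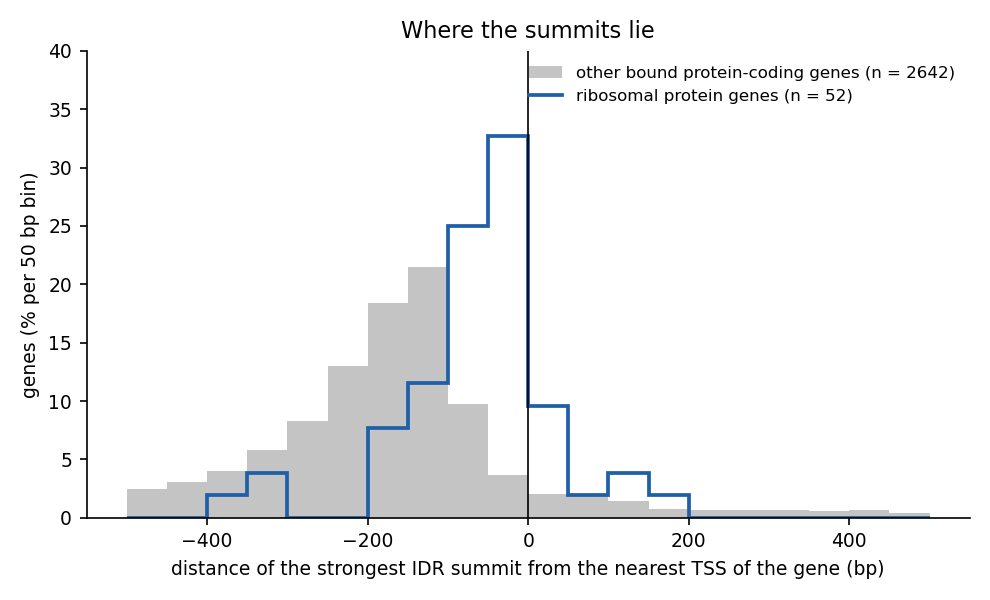
Distance of the strongest IDR summit from the nearest TSS of the gene in bp (horizontal, negative upstream) against the percentage of genes per 50 bp bin (vertical), as a line for the 52 bound ribosomal protein genes and as grey bars for the other 2642 bound protein-coding genes. The line peaks in the bin just upstream of the TSS, and the grey bars peak between 100 and 150 bp upstream.

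Other genes of protein synthesis were compared side by side. Mitochondrial ribosomal protein genes were bound in 25 of 73 cases (34.2%, interval 24.4 to 45.7%), ribosome biogenesis genes in 12 of 39 (30.8%, 18.6 to 46.4%) and translation factor genes in 14 of 38 (36.8%, 23.4 to 52.7%), all beside the same 19.3%. Their median IDR signals of 332, 345 and 433 were above the 266 of the cytosolic ribosomal protein genes. The mitochondrial genes included mRpS10 with 4373 and mRpL41 with 4342, at ranks 3 and 4 of the IDR list. Summit positions differed as well, with medians of -181 bp, -115 bp and -43.0 bp in the same order, so translation factors were nearest to the cytosolic ribosomal protein genes.

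Base composition at the summit is shown first by sequence. Windows of 61 bases around the strongest IDR summit are given on the strand of the gene for genes toward either end of the range, with runs of at least 5 A or T in capitals. RpL27A is at chr2L:4458428-4458488 on the minus strand, with a summit at -94 bp. RpL22 is at chrX:765148-765208, at -48 bp, and sta at chrX:1482996-1483056, at -3 bp, both on the minus strand.
RpL27A: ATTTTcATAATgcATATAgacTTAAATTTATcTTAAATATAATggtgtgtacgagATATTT
RpL22: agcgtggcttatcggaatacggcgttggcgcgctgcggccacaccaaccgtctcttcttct
sta: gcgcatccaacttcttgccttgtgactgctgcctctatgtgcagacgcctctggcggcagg

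The RpL27A window is made largely of A and T, while the windows of RpL22 and sta hold no such run. Counted over the summit and 50 bp to either side, the GC content was 20.8% at RpL27A, 60.4% at RpL22 and 61.4% at sta. Across the 52 bound genes it was 41.8% ± 11.5 (SD over genes), from 18.8% at RpL23 to 62.4% at RpL7, and over all bound protein-coding genes it was 29.2% ± 8.41. The 14 bound translation factor genes were close to the ribosomal protein genes, with 40.3% ± 10.1, while the mitochondrial ribosomal protein genes had 28.0% ± 6.74 and the biogenesis genes 27.6% ± 5.05. The summit held less GC than the flanks 600 bp away at 32 of the 52 genes (61.5%) and at 92.9% of all bound protein-coding genes.

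Distance from the TSS moved with composition. The 36 bound ribosomal protein genes with a summit within 100 bp of the TSS had 46.7% ± 8.80 GC there, and the other 466 bound protein-coding genes with summits as close had 31.6% ± 9.17. The 16 genes with a summit farther away had 30.8% ± 9.19, beside 28.4% ± 7.80 over 2176 other genes. The higher GC content was thus found at the summits close to the TSS. A GC bias of amplification or sequencing was not tested.

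**Figure D5:**
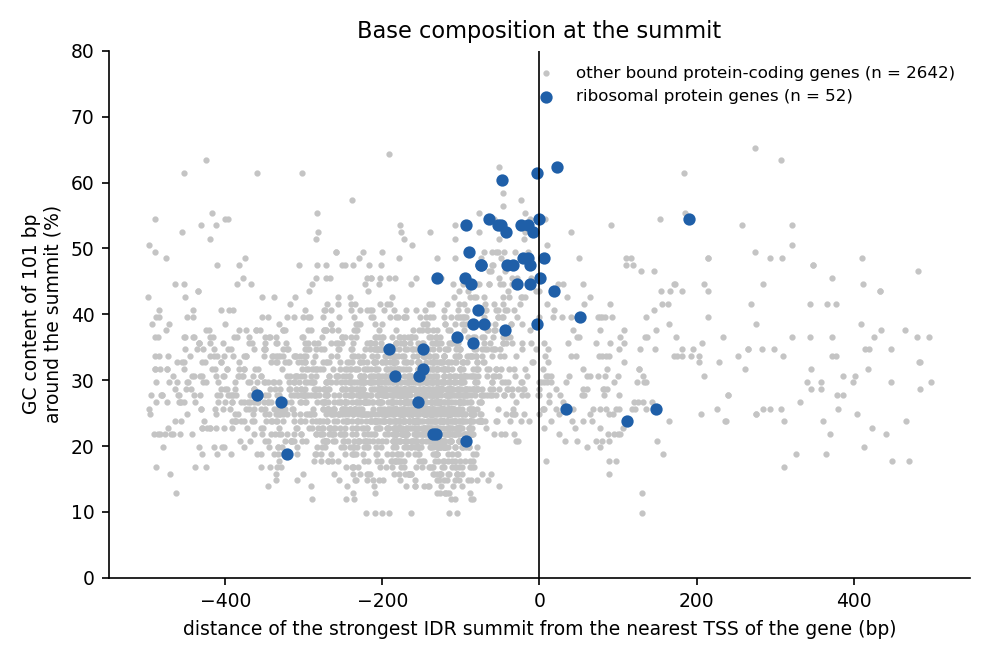
GC content of the strongest IDR summit with 50 bp to either side (vertical) against its distance from the nearest TSS of the gene in bp (horizontal), with large points for the 52 bound ribosomal protein genes and small grey points for the other 2642 bound protein-coding genes. Ribosomal protein genes with summits near the TSS reach 60.4% to 62.4% GC, and those more than 150 bp upstream lie among the grey points.

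The dip in GC content upstream of the TSS was alike in bound and unbound ribosomal protein genes, and the GC content at the TSS was higher in the bound ones. The mean GC content fell to 30.5% at -175 bp in the bound genes and to 30.8% at -150 bp in those not bound, and to 35.9% at -150 bp over all protein-coding genes. At -50 bp it was 45.3% in the bound genes and 39.0% in the others, and at the TSS 47.9% and 42.4%, beside 43.1% over all protein-coding genes at the TSS. The typical IDR summit of a ribosomal protein gene therefore lay nearer the TSS than the lowest GC content of its promoter. At the pooled summits of 30 unbound genes GC content was 39.9% ± 9.60.

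Sequence elements of these promoters were counted within 100 bp of a TSS on either strand, or within 10 bp on the strand of the gene for CTTT and TCAGT, and within 50 bp upstream for the TATA box letters TATAAA. At the TSS, CTTT was present at 50 genes (54.3%), beside 10.9% of all protein-coding genes. TCAGT, the core of the common fly initiator, was present at RpL23A alone (1.09%, beside 13.3%), and TATAAA at 1 gene (1.09%, beside 10.6%). TATCGATA was present at 26 genes (28.3%, beside 7.67%), CACGTG, the E-box bound by Myc and related factors, at 14 (15.2%, beside 2.90%), and GGTCACAC, the core of motif 1, at 12 (13.0%, beside 6.56%). GAGAG, bound by GAGA factor, was present at 13 (14.1%, beside 22.9%) and AAAAAA at 41 (44.6%, beside 36.2%). For AAAAAA the order did not hold within 50 bp, where the shares were 17.4% and 17.6%. TATCGATA and CTTT occurred together at 13 genes, and 70 of the 92 had at least 1 of the DRE, motif 1, E-box and TCT letters. Shares of all protein-coding genes with these combinations are not given here, so no excess can be read from either count. A match is a string of letters and not a bound site.

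Bound and unbound ribosomal protein genes carried these elements at similar shares. CTTT was found at 57.7% of the bound genes (interval 44.2 to 70.1%) and at 20 of the 40 not bound (35.2 to 64.8%). TATCGATA was found at 26.9% (16.8 to 40.3%) and at 12 of 40 (18.1 to 45.4%). Taken the other way, 30 of the 50 ribosomal protein genes with CTTT at the TSS were bound, and 21.1% of the other protein-coding genes with it. RpL34b and RpL28 in the windows above are bound genes with CTTT, and RpS5b has it without being bound.

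All strings of 8 bases within 100 bp of the TSS were also counted, and those named here were chosen after their counts were seen. CTTTCTTT, which contains the TCT core, occurred on either strand at 24 of 92 genes (26.1%) and at 1.55% of all protein-coding genes. CGTTTCCG occurred at 16 genes (17.4%, beside 0.709%), and 11 of these were bound. CCTTCTTT occurred at 16 (17.4%, beside 0.694%), of which 7 were bound, and TGGTATTT at 18 (19.6%, beside 3.89%), of which 11 were bound. CGTTTCCG and TGGTATTT can both be read in the RpS25 window, in lower case.

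Paralogs were compared pair by pair. Of 10 pairs with at least 50% identity between their proteins, 7 had a single bound member, 2 had none and 1 had both, and 9 of the 20 genes in these pairs were bound. The 7 include RpL40 with RpS27A, alike through ubiquitin, and RpS15Aa with RpS15Ab, where mapping is uncertain. RpL34a and RpL34b, 81.0% identical, were both bound, at ranks 1509 and 390. In the pairs with a single bound gene, RpS19a ranked 4294 while RpS19b was in no list, and RpL10Ab ranked 3566 while RpL10Aa was in none. RpS5a ranked 3361, and RpS5b, its counterpart of the ovary, had only a weaker pooled peak at rank 8993. RpS28b ranked 2653 and RpS28a 23003 in the pooled list, and RpS10b ranked 2458 and RpS10a 9793. The promoters of RpS19a and RpS28b shown above hold CTTT within 10 bp of the TSS and those of their unbound partners do not. The RpS28b match starts 9 bp past the TSS, close to the limit of 10 bp, and in RpS28a a CTTT starts just past that limit. The contrast in this pair thus rests on where the limit was set. RpL10Ab and RpS15Aa also hold CTTT at the TSS while their unbound partners do not. RpS5b and RpL40, which were not bound, hold CTTT as their bound partners do. The bound RpS10b holds none, like RpS10a.

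Near-identical copies can lose reads that map to both. RpS14a and RpS14b encode the same protein, with 100% identity, and neither was bound, with pooled ranks of 5532 and 5495. In these genes 86.2% and 84.4% of 32-base strings occurred once in the genome, and in RpS15Ab, the partner of the bound RpS15Aa at 97.7% identity, 81.9% did. In the other genes the share was above 90%, with a median of 100%. How reads that map to several places were handled is not given in the sources used here, so these 3 genes are uncertain. RpL40 and RpS27A, which both encode ubiquitin fused to a ribosomal protein and are 57.1% identical through it, differed in that RpL40, at pooled rank 5515, was not bound and RpS27A, at IDR rank 2592, was.

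Gene structure and position varied between bound and unbound ribosomal protein genes within wide intervals. A divergent protein-coding neighbour started within 1000 bp at 35 of the 52 bound genes (67.3%, interval 53.8 to 78.5%) and at 20 of the 40 others (interval 35.2 to 64.8%), beside 35.2% of all protein-coding genes and 63.8% of all bound ones. Of the 29 genes with snoRNA genes inside them 20 were bound (69.0%), and of the 63 without them 32 (50.8%), beside 19.3% of all protein-coding genes. Intervals and the bound share of all protein-coding genes that hold snoRNA genes are not given here. No link between snoRNA genes and binding can therefore be read from these counts. By chromosome, the bound genes were 10 of 19 on 2L, 10 of 20 on 2R, 11 of 14 on 3L, 12 of 23 on 3R, 9 of 15 on X and 0 of 1 on chromosome 4. The bound shares of all protein-coding genes were 19.9%, 16.9%, 20.6%, 20.7%, 18.3% and 8.75% in the same order. RpL23, RpL32, RpL34b, RpS10b and RpS26 had 2 IDR summits near a TSS each. At RpS10b these lay at -192 and +9 bp, and at RpL34b at -105 and -306 bp within the same peak.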

How the data were processed

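Ssrp-GFP ChIP-seq of 2 embryo replicates was analysed from 4 deposited peak lists on dm6. The authors deposited, for each peak, a signal of their peak caller, the −log10 of a q-value, a p-value column that held no values and a summit offset. What aligner, peak caller and IDR threshold were used, and what the shared alignment holds, is not given in the sources used here. Per the text deposited with the samples, each replicate list comes from the alignment of that replicate, the pooled list from both, all with 1 further shared alignment, and the IDR list from the replicate and pooled lists.

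Summits (start plus offset, with 4 IDR summits set to the nearest base of their peak) were placed against Ensembl genes with Python 3.11.15, numpy 2.4.6, pandas 2.3.3, scipy 1.17.1 and Biopython 1.88, and plotted with matplotlib 3.10.9. Placing was tested on simulated peaks. Sequences came from the RefSeq release 6 genome. Elements were sought at the TSS nearest a summit, or the most 5′ one. Protein identity came from translated Ensembl coding sequences in place of RefSeq proteins. A signal multiple is the signal of a peak over the median of its list. Shares have Wilson 95% intervals. No test was made.

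Members, gene lists and elements were chosen with earlier results of these data known. Of the 39 listed translation factors 38 matched the annotation, and of 43 biogenesis genes 39. Named genes were the 10 highest and 5 lowest IDR signals, genes with a peak away from TSSs or in no list, paralog pairs, the largest rank gaps between replicates, and the summits nearest a TSS; some items that the rule names are not reported here. Alternatives were other windows, TSS choices, list lengths, each replicate alone, no shared peaks, and other widths for GC content and elements.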

Additional observations from a re-analysis of the deposited data

How the results depend on the processing

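The 52 bound genes became 24 with the 2722 strongest IDR peaks (beside 11.8% of all protein-coding genes), 82 with the whole pooled list (beside 43.4%) and 18 without peaks near a TSS of another gene, each by construction of fewer or more peaks. With other windows or TSS rules, or without the -like genes, the count was between 46 (beside 13.8%) and 55 (beside 22.6%). With the 10890 strongest pooled peaks it rose to 75 (beside 29.1%), again by construction of more peaks. Without a replicate it was 49 to 55 (beside 19.1% and 19.5%). The large subunit gave 16 and the small subunit 8 with the 2722 strongest IDR peaks, and the small subunit gave 30 with the 10890 strongest pooled peaks. Without a replicate the large subunit gave 30 to 36 and the small subunit 19 in either case. The median signal over the list median was 0.809 without shared peaks and 0.946 to 1.06 without a replicate, beside 0.912, and the cause was not tested. The median position was -86.0 to -32.0 bp and GC content 38.2% to 43.9% without a replicate, and neither left its side of the values over all genes. Element shares moved by more than their interval in 10 of 16 comparisons with narrower or wider windows. No paired analysis was possible because there is a single group. Depth and control signal are not known here, so weak peaks cannot be told from missing ones.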
